A study of Homo sapiens with 6 samples.

Results

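Caveolae are small flask-shaped pits of the plasma membrane, and the genes that build them were followed here together with the flotillin genes in U2OS cells depleted of SQLE. SQLE encodes squalene epoxidase, an enzyme of cholesterol synthesis. The set was named by gene symbol from known roles and not by measured values. It held the caveolins CAV1 and CAV2, the cavins CAVIN1 and CAVIN3, the flotillins FLOT1 and FLOT2, and the membrane-shaping proteins EHD2 and PACSIN2. These are 8 of the 19937 genes in the count table, and all 8 were among the 12450 genes with enough counts to be tested.

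The study compared 3 RNA sequencing libraries of cells carrying a short hairpin RNA against SQLE (shSQLE) with 3 libraries of cells carrying a scrambled hairpin (shControl). U2OS is an established human osteosarcoma line. Cells of both groups were infected with a pGIPZ lentivirus and kept in puromycin at 2 μg/mL for 2 weeks, so vector and drug selection were common to both. Of the hairpins designed against SQLE, the labels do not name the 1 carried by the sequenced cells, and effects of that hairpin on other transcripts cannot be told apart from effects of SQLE loss. Nothing in the labels ties the 3 libraries of a group to separate cultures, and the p-values measure the spread between these libraries, which may be technical.

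In the caveola, the caveolins form the membrane-embedded coat, which needs cholesterol to assemble, and the cavins form a peripheral coat on top of it. EHD2, an ATPase, sits at the neck and holds the pit at the surface, and PACSIN2, an F-BAR protein, bends the membrane there. The flotillins form separate cholesterol-rich rafts, with no caveolin in them. Sterol-regulated transcription acts through SREBP factors, which bind the sterol response element, and Sp1-type factors bind GC boxes.

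CAV2 and CAV1 lie next to each other on the plus strand of chromosome 7, and their promoters are shown because the ratio of these neighbours within a library, given below, did not overlap between the groups. The sequences are from RefSeq (GRCh38.p14), end upstream of the RefSeq start site, and hold no annotated exon bases of their own gene. Exons of other genes were not checked, and the GC box, GGGCGG on either strand, is in capitals.
CAV2 promoter, chr7:116499488-116499737, plus strand: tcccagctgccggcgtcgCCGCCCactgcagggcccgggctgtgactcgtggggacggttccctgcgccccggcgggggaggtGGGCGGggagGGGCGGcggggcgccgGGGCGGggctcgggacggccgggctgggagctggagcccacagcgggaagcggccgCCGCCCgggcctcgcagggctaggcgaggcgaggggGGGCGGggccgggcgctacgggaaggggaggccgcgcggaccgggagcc
CAV1 promoter, chr7:116524759-116524993, plus strand: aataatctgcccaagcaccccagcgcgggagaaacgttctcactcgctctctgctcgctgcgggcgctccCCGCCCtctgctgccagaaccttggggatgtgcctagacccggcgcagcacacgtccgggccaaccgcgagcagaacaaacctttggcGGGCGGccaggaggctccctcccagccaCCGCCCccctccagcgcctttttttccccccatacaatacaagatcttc
GC boxes stood in both promoters, and in 9 of the 14 promoter windows that RefSeq gives for 6 of the 8 genes (CAV1, CAV2, FLOT1, FLOT2, EHD2 and PACSIN2). Some windows of the same gene overlap, and CAV1 has windows that share the same GC boxes. Of all 35116 windows of the same length, 45% held a GC box. The sterol response element (TCACNCCAC), the E-box (CACGTG) and the forkhead motif (GTAAACA), each searched on both strands, were not found in any of the 14 windows and occurred in 1.13%, 7.26% and 3.42% of all windows. Each window begins 250 bases before its start site, and only exact matches were counted. Sites further upstream were not searched, and with shares this low the absence does not set these genes apart. CAVIN1 and CAVIN3 had no entry in the promoter table.

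SQLE itself was read at 1349, 1867 and 1924 normalized counts in shControl and at 229, 204 and 219 in shSQLE, where a normalized count is a count divided by the library's relative depth. The knockdown thus left 12.7% of the control level (log2 fold change −2.98 ± 0.17, SE, n = 3 per group, edgeR quasi-likelihood test with Benjamini-Hochberg adjustment, adjusted p = 0.000299). Totals per library ran from 12212378 to 14393292 counts. Of 10 osteoblast and mesenchymal markers, 5 passed the filter (VIM, SPARC, RUNX2, SPP1 and COL1A1), while SP7 and IBSP were at 0 in every library. COL1A1 was the single marker called, lower in shSQLE (adjusted p = 0.0452, edgeR), a call that held without shControl replicate 1 and was lost without any other library. It also passed in only 7 of the 10 alternatives that keep the 6 libraries. Cell types known for abundant caveolae left few counts. Summed endothelial markers reached at most 18.6 normalized counts in a library, and summed adipocyte and muscle markers at most 30.0. Summed epithelial markers ran from 5104 to 8629 in shControl and from 5890 to 7469 in shSQLE. Most of these counts were from KRT8, at 8574, 5476 and 5050 in shControl.

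The library shControl replicate 1 stood apart from the other control libraries, and its distance from them followed GC content. Relative to the mean of shControl replicates 2 and 3, the median gene was at a log2 value of −0.56 in the GC-poorest of 4 equal bins of genes and at 0.53 in the GC-richest. Of the 8 genes, the GC-poorest, CAV1 and CAV2, were lower in that library and all but PACSIN2 of the others were higher, without following GC content strictly. CAV1 (40.9% GC) and CAV2 (36.3% GC) were both at −0.32, PACSIN2 (53.3%) was at −0.18, and EHD2 (61.2%) was at 0.24. CAVIN1 (59.2%) and FLOT2 (59.0%) were both at 0.45, FLOT1 (56.9%) was at 0.62 and CAVIN3 (66.7%) at 0.90. Fold changes of the members and the calls in the lists are given with and without this library below. Levels, their order, likeness and the overlap counts over all genes are given only with it. Its part in each result was otherwise not tested.

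No member passed the adjusted p of 0.05 in either direction by edgeR, and DESeq2 and limma-voom also called 0 of the 8. Across all genes tested, 2.84% were called lower and 0.369% higher in shSQLE. Before adjustment, 2 of the 8 members, CAV2 and CAVIN3, were lower at p under 0.05 and 0 were higher, beside 9.89% of all genes lower and 4.83% higher. The same 2 genes had groups that did not overlap, both with shSQLE below shControl, where 12.1% of all genes had non-overlapping groups in that direction and 10% in the other. The median log2 fold change of the 8 members was −0.02, with 4 below and 4 above 0, and the median of all genes tested was −0.01.

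**Figure D1:**
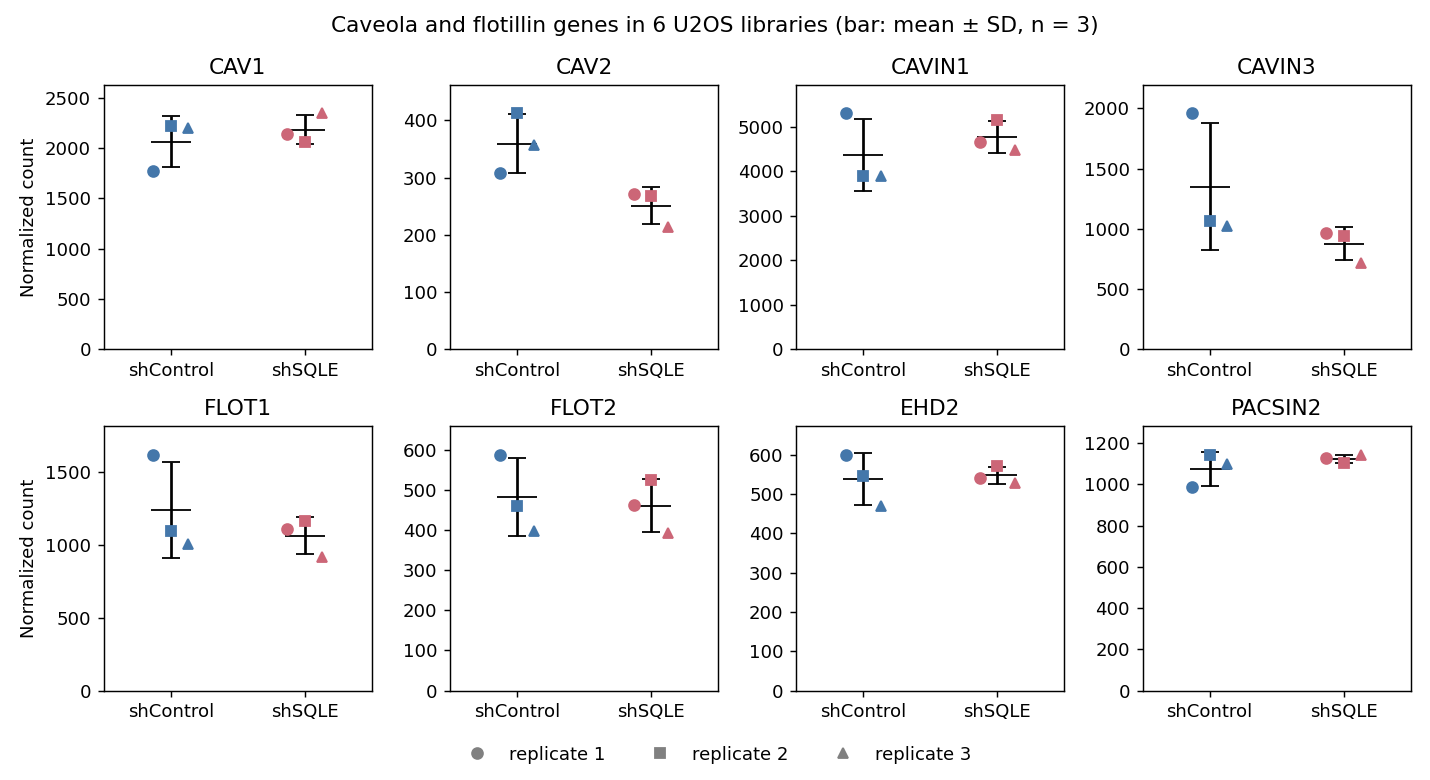
Normalized counts of the 8 genes in the 6 libraries, 1 panel per gene, with each axis starting at 0. Marker shape gives the replicate number, and bars give the mean ± SD of 3 libraries. CAV2 and CAVIN3 are the only panels in which the shSQLE points all lie below the shControl points, and for CAVIN3 the control mean is raised by replicate 1 at 1960.

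Among the caveolins, CAV1, the principal coat protein and the member without which caveolae do not form in most cells, had means of 2062 ± 253 in shControl and 2183 ± 146 in shSQLE (SD, n = 3 each). CAV1 (ENSG00000105974, chr7:116524994-116561179, plus strand, hg38) was read at 1770, 2220 and 2196 normalized counts in shControl and at 2141, 2064 and 2346 in shSQLE. The groups overlapped, and the lowest of the 6 values was that of shControl replicate 1. The log2 fold change was 0.08 ± 0.12 (SE, n = 3 per group), with a 95% interval that runs from 0.868-fold to 1.29-fold of control. The test does not show that CAV1 was equal in the 2 groups, and changes beyond those bounds lie outside the interval.

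CAV2, which joins CAV1 in mixed oligomers and depends on it to reach the surface, was the member with the smallest p. CAV2 (ENSG00000105971, chr7:116287380-116508541, plus strand) was read at 308, 412 and 357 normalized counts in shControl and at 272, 267 and 214 in shSQLE. The annotated gene reaches far upstream of the promoter printed above through longer transcripts. Each shSQLE library lay below each shControl library. Mean levels were 359 ± 52.1 in shControl and 251 ± 32.4 in shSQLE (SD, n = 3 each), 69.9% of control. On the log2 scale the difference was −0.52 ± 0.16 (SE), unadjusted p = 0.0132 and adjusted p = 0.176 in the edgeR fit across all genes. An exact two-sided permutation test on the 6 log2 values gave p = 0.1, the smallest that 3 libraries against 3 allow.

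CAV2 was called in some of the alternative fits. Without shControl replicate 1 the log2 fold change was −0.61 and the adjusted p 0.00377 (edgeR), in a fit that called 2300 of 12570 genes lower. With offsets for GC content and transcript length within each library it was −0.44 with an adjusted p of 0.0444, where 1080 of 12447 genes were called lower. Leaving out any other library gave no call for CAV2, with adjusted p from 0.361 to 0.540. The estimate was smallest in size, −0.40, without shSQLE replicate 3. Over all 16 alternatives the estimate stayed between −0.61 and −0.40, and CAV2 passed the threshold in 3.

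The 2 caveolin genes were further apart in shSQLE than in shControl. Per kilobase of exon, CAV1 exceeded CAV2 9.76-fold, 9.16-fold and 10.5-fold in the shControl libraries and 13.4-fold, 13.1-fold and 18.7-fold in the shSQLE libraries. The highest ratio was that of shSQLE replicate 3, where CAV2 was lowest, and each other shSQLE ratio also exceeded each control ratio. A ratio taken within a library does not move with that library's scaling, and the shControl replicate 1 ratio of CAV1 to CAV2 fell between those of the other control libraries. The size of the fold depends on the length used. With the longest coding transcript as the length, the mean ratio was 6.41 in shControl and 9.86 in shSQLE, in place of 9.79 and 15.1. The difference between groups in the log2 ratio, which no choice of length changes, was 0.60 (3.29 ± 0.10 against 3.89 ± 0.28, SD, n = 3 each, exact two-sided permutation p = 0.1, the smallest possible).

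The 2 tested genes on either side of the caveolin pair were not called. MET, the hepatocyte growth factor receptor gene, which follows CAV1, was at 770, 1404 and 1376 normalized counts in shControl and at 1118, 943 and 1257 in shSQLE (log2 fold change −0.10 ± 0.23). Further along, CAPZA2, for an actin-capping subunit, had a log2 fold change of 0.00 ± 0.16. On the other side MDFIC was at −0.26 ± 0.23 and FOXP2 at 0.31 ± 0.39. In all 4 genes the groups overlapped. Leaving shControl replicate 1 aside, MET (1404 and 1376 against 1118, 943 and 1257) and MDFIC (472 and 443 against 352, 289 and 336) were lower in every shSQLE library. CAPZA2 and FOXP2 still overlapped. The share of all genes that separate in this way was not computed. By adjusted p, which is another measure, the fit without that library called 2300 of 12570 genes lower. Whether this region differs from others was not tested.

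By root mean square difference of the centred log2 values over the 6 libraries, the genes most like CAV2 among 9879 candidates were PRXL2C (0.0613), IRS2 (0.0856) and QPCT (0.0871). PRXL2C was at 158, 189 and 162 normalized counts in shControl and at 127, 126 and 96.6 in shSQLE. IRS2, an adaptor of the insulin receptor, was at 127, 175 and 144 in shControl and at 114, 119 and 103 in shSQLE. None of these 3 genes passed the adjusted p, the lowest being 0.0941 for QPCT.

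Of the cavins, CAVIN1 is required for caveolae to form and CAVIN3 is an accessory coat protein that binds protein kinase C delta. CAVIN3 (ENSG00000170955, chr11:6318946-6320532, minus strand) was read at 1960, 1069 and 1026 normalized counts in shControl and at 965, 943 and 721 in shSQLE. The groups did not overlap, but the gap between the lowest control and the highest knockdown library was small beside the excess of shControl replicate 1 over the other controls. The log2 fold change was −0.62 ± 0.26 (SE, n = 3 per group), with unadjusted p = 0.0436 and adjusted p = 0.317 by edgeR.

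Without shSQLE replicate 3, in which CAVIN3 was lowest, the CAVIN3 difference was −0.49 with an adjusted p of 0.633 (edgeR). Without shControl replicate 1, it shrank to −0.26 with an adjusted p of 0.104. With the GC content and length offsets it was −0.55 with an adjusted p of 0.000479, where 1080 of 12447 genes were called lower. The offsets and leaving out shControl replicate 1 thus moved CAVIN3 differently, and the gene is richest in GC of the 8 members. Its exons share 571 bases, 36.7% of their length, with an antisense long noncoding RNA that the table does not list, and since the strand setting of the counting was not stated, reads of the pair cannot be told apart.

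CAVIN1 (ENSG00000177469, chr17:42402449-42423256, minus strand) was read at 5303, 3896 and 3886 normalized counts in shControl and at 4650, 5161 and 4476 in shSQLE. All 3 shSQLE libraries lay above shControl replicates 2 and 3 and below replicate 1. The fold change with all libraries was 0.13 ± 0.15 on the log2 scale (adjusted p = 0.775, edgeR), and without shControl replicate 1 it was 0.29 with an adjusted p of 0.0162. Of the 16 alternatives, this was the single fit that called CAVIN1, and it called 1964 of 12570 genes higher.

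Relative to CAVIN1, CAVIN3 was lower in each shSQLE library than in each shControl library. Per kilobase, CAVIN3 stood at 0.847, 0.629 and 0.605 of CAVIN1 in shControl and at 0.476, 0.419 and 0.369 in shSQLE. The lowest control ratios were those of shControl replicates 2 and 3, so leaving out replicate 1 could not make the groups overlap. By longest coding transcript the mean ratio was 1.05 in shControl and 0.638 in shSQLE. The log2 ratio differed by −0.71 (−0.54 ± 0.27 against −1.25 ± 0.18, SD, n = 3 each, exact two-sided permutation p = 0.1, the smallest possible).

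**Figure D2:**
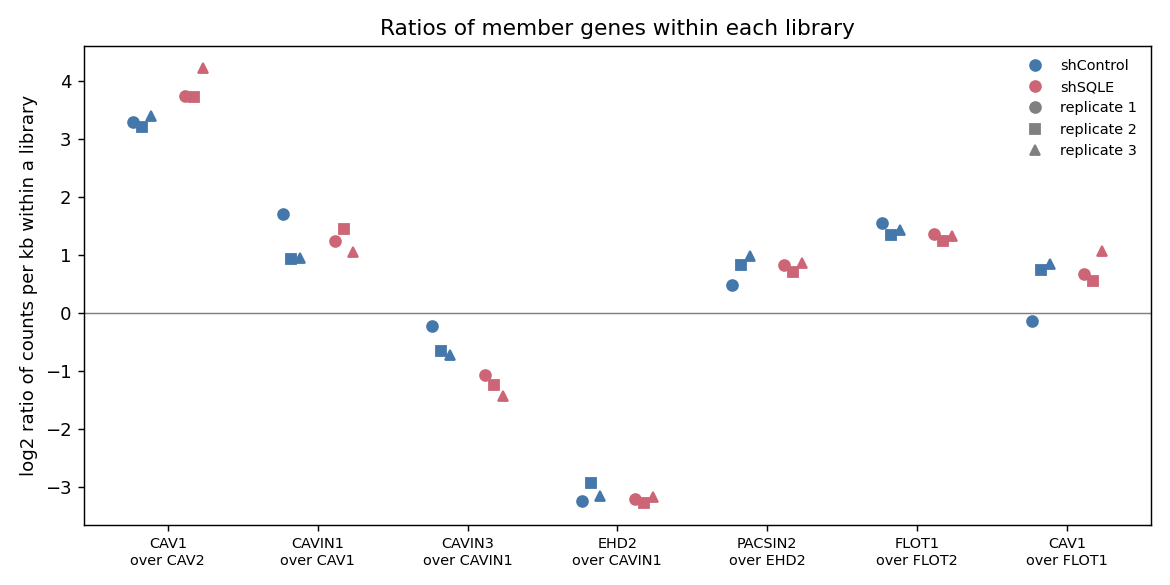
log2 ratio of normalized counts per kilobase of exon for 7 pairs of member genes, with 1 point per library, blue for shControl and red for shSQLE. The CAV1 over CAV2 points are all higher in shSQLE and the CAVIN3 over CAVIN1 points all lower, and the groups overlap for the other 5 pairs.

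The remaining 5 of the 7 ratios overlapped between groups. Both ratios that did not overlap hold CAV2 or CAVIN3, whose own counts did not overlap either. Among single genes, 12.1% had non-overlapping groups with shSQLE lower and 10% with shSQLE higher. The share over pairs of genes was not computed. CAVIN1 over CAV1, the peripheral against the membrane-embedded coat gene, was 2.35 ± 0.772 in shControl and 2.38 ± 0.321 in shSQLE (SD, n = 3 each). The ratio of EHD2 to CAVIN1 was 0.116 ± 0.0131 and 0.107 ± 0.00373. Within the flotillins, FLOT1 over FLOT2 was 2.72 ± 0.202 and 2.47 ± 0.105.

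EHD2 and PACSIN2, the proteins of the caveolar neck, had the narrowest spread, relative to their means, among the shSQLE libraries. EHD2 (ENSG00000024422, chr19:47713422-47743134, plus strand) was at 600, 547 and 469 normalized counts in shControl and at 541, 571 and 529 in shSQLE. All shSQLE values fell inside the control range, and the log2 fold change was 0.02 ± 0.13 (SE, n = 3 per group), with a 95% interval from 0.825-fold to 1.25-fold. Its sign changed in 3 of the 16 alternatives.

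PACSIN2 (ENSG00000100266, chr22:42835412-43015149, minus strand) was at 986, 1145 and 1097 normalized counts in shControl and at 1128, 1104 and 1141 in shSQLE. The knockdown values again fell inside the control range. A log2 fold change of 0.06 ± 0.11 was fitted, with a 95% interval from 0.880-fold to 1.24-fold. PACSIN2 shares 155 exon bases, 3.4% of its length, with ARFGAP3 on the same strand.

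Both flotillin genes overlapped between the groups, and in both the highest value was that of shControl replicate 1. FLOT1 (ENSG00000137312, chr6:30727709-30742732, minus strand) was at 1620, 1095 and 1007 normalized counts in shControl and at 1110, 1162 and 920 in shSQLE. For FLOT2 (ENSG00000132589, chr17:28879335-28897733, minus strand), the counts were 588, 460 and 398 in shControl and 461, 525 and 394 in shSQLE.

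The log2 fold change of FLOT1 was −0.22 ± 0.19 (SE, n = 3 per group, adjusted p = 0.696, edgeR) and that of FLOT2 was −0.07 ± 0.18 (adjusted p = 0.920). Their 95% intervals ran from 0.628-fold to 1.17-fold and from 0.716-fold to 1.28-fold. Without shControl replicate 1 both signs turned, to 0.02 for FLOT1 and 0.10 for FLOT2, with neither called.

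**Figure D3:**
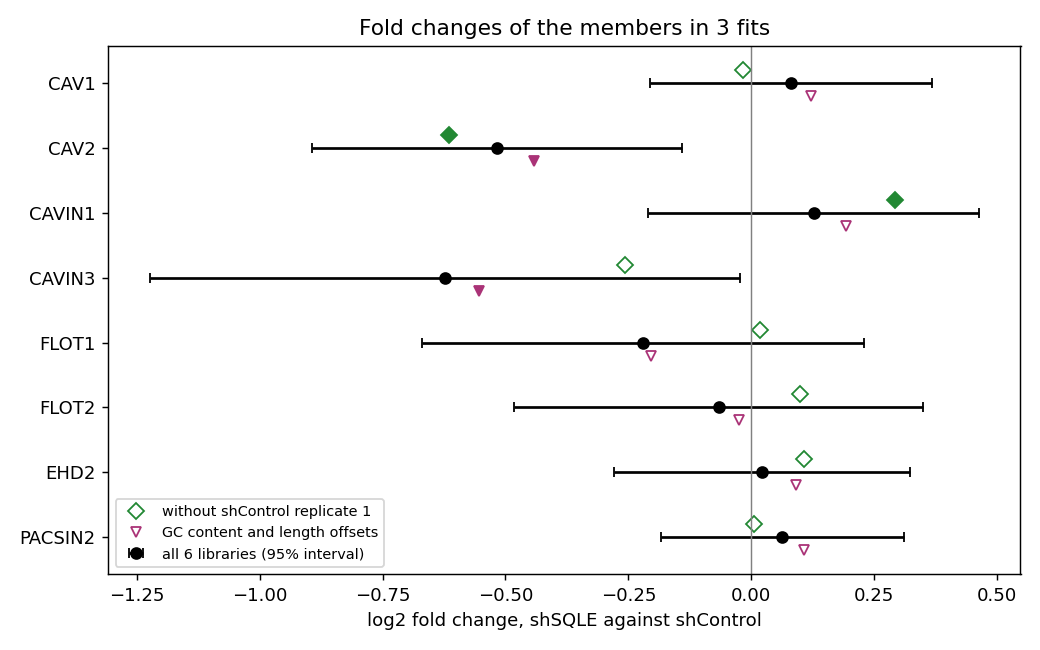
log2 fold change of each member, shSQLE against shControl. Black points with 95% intervals are from all 6 libraries, green diamonds from the fit without shControl replicate 1, and purple triangles from the fit with GC content and length offsets; filled symbols have an adjusted p under 0.05. CAV2 is filled in both alternative fits, CAVIN3 in the offset fit alone and CAVIN1 in the fit without the library alone.

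Across the 8 genes, the profiles over the 6 libraries fell nearest for CAV1 and PACSIN2 (root mean square difference of centred log2 values 0.0642), FLOT1 and FLOT2 (0.0992), and CAVIN1 and EHD2 (0.112). The farthest pair was CAV1 and CAVIN3 (0.556), and CAV1 and CAV2 differed by 0.346. These distances include shControl replicate 1.

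Compared per kilobase of exon, the members spanned a wide range of levels. In shControl, CAVIN1 was highest at 1222 ± 228 normalized counts per kilobase (SD, n = 3), then CAVIN3 at 868 ± 339, CAV1 at 533 ± 65.5 and FLOT1 at 390 ± 104. PACSIN2 followed at 236 ± 17.9, FLOT2 at 142 ± 28.5, EHD2 at 140 ± 17.2 and CAV2 at 54.6 ± 7.91. CAVIN1 stood at the 96.8th percentile of all tested genes by this measure, and CAV2 at the 43.1st.

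Neighbours in this order whose ranges over 3 libraries overlapped in shControl were CAVIN1 with CAVIN3, CAV1 with FLOT1, and FLOT2 with EHD2. In shSQLE the order of means was CAVIN1, CAV1, CAVIN3, FLOT1, PACSIN2, EHD2, FLOT2 and CAV2. There CAV1 (564 ± 37.6 per kilobase) and CAVIN3 (563 ± 87.0) overlapped, as did EHD2 and FLOT2. When the longest coding transcript replaced merged exons as the length, CAVIN3 ranked above CAVIN1 in shControl, and in shSQLE CAVIN3 (853) ranked above CAV1 (823) and FLOT2 (167) above EHD2 (156). The shControl level of CAV2 was then 122 per kilobase, still the lowest of the 8. The order within these pairs depends on the length used.

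**Figure D4:**
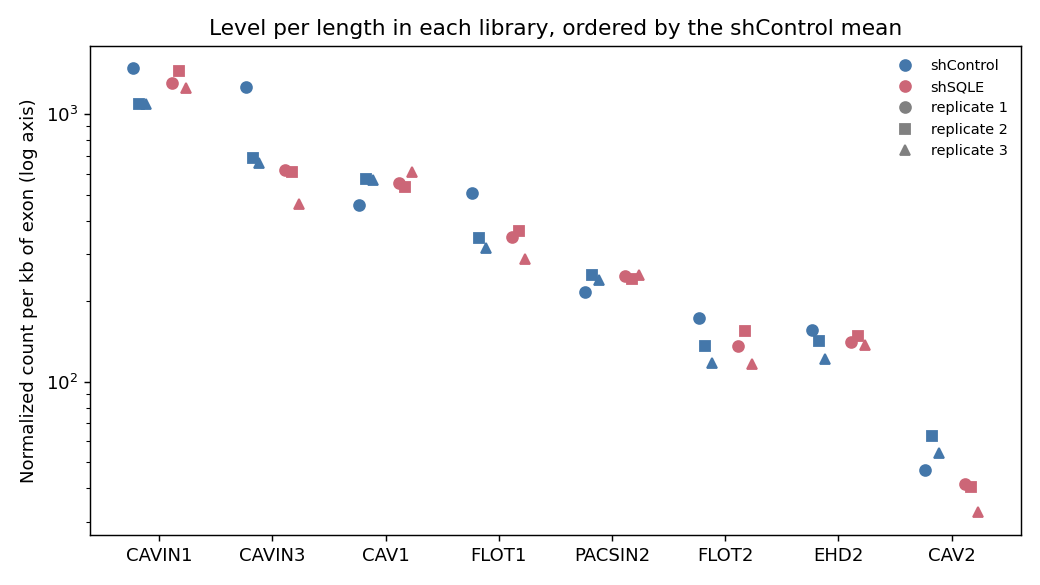
Normalized count per kilobase of exon in each library on a log axis, with genes ordered by the shControl mean, blue for shControl and red for shSQLE. CAVIN1 lies at the top and CAV2 at the bottom in both groups, and CAVIN3 in shControl replicate 1 lies well above the other CAVIN3 points.

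Of the close relatives of these genes, 5 of 8 passed the filter, and 0 were called by edgeR, DESeq2 or limma-voom or had an unadjusted edgeR p under 0.05. CAV3, the muscle caveolin, and CAVIN2 had 0 counts in every library, and PACSIN1, the neuronal form, had at most 5. The smallest p belonged to EHD3, an endosomal EHD protein, at 200, 222 and 204 normalized counts in shControl and 182, 167 and 158 in shSQLE (log2 fold change −0.30 ± 0.13, adjusted p = 0.352, edgeR). EHD1, another endosomal EHD protein, was at 2016, 1492 and 1445 and at 2038, 2262 and 1841 (0.31 ± 0.16, adjusted p = 0.429). Leaving out shControl replicate 1 gave 0 of the 5 lower and 2 higher, as many as the GC content and length offsets gave. Over all genes, the fit without that library called 2300 lower and 1964 higher of 12570, and the offsets 1080 and 1507 of 12447.

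Flotillins belong to the SPFH domain family, in which prohibitins, stomatin-like proteins and erlins also fall. Of 9 further SPFH genes 6 passed the filter, 5 of them above 0, with a median log2 fold change of 0.24 beside −0.01 for all genes. None was called by edgeR, DESeq2 or limma-voom, and 0 had an unadjusted edgeR p under 0.05. STOML1 was at 112, 93.1 and 67.7 normalized counts in shControl and at 118, 126 and 118 in shSQLE, and these groups did not overlap (0.41 ± 0.20, adjusted p = 0.418, edgeR). PHB2, a mitochondrial prohibitin, was at 5021, 3481 and 3333 and at 4789, 5457 and 4706 (0.34 ± 0.17, adjusted p = 0.427). In the fit that leaves out shControl replicate 1, 4 of the 6 were called higher and 1 lower, and the median was 0.47. That fit called 1964 higher and 2300 lower of all 12570 genes tested in it. The GC content and length offsets called 2 higher and 0 lower, with a median of 0.25, beside 1507 higher and 1080 lower of 12447 genes.

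Kinases, dynamins, filamin and F-BAR proteins that act on caveolae made up a list of 14, of which 13 passed the filter, 6 below and 7 above 0. No gene of this list was called by edgeR, DESeq2 or limma-voom, 1 had an unadjusted edgeR p under 0.05, and the median log2 fold change was 0.01. ROR1, a receptor known to hold CAVIN1 and CAV1 together, was at 17.3, 27.1 and 38.3 normalized counts in shControl and at 43.1, 43.4 and 58.6 in shSQLE (0.79 ± 0.30, adjusted p = 0.270, edgeR). ABL1, a kinase that acts on caveola trafficking and stress fibres, was at 1114, 1141 and 1158 and at 961, 992 and 1091 (−0.17 ± 0.11, adjusted p = 0.558). Leaving out shControl replicate 1 gave 0 calls in this list too, beside 2300 lower and 1964 higher of 12570 genes over all. The GC content and length offsets gave 0 lower and 1 higher, beside 1080 lower and 1507 higher of 12447.

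Sphingolipids pack with cholesterol in rafts, and 22 of 26 genes of their synthesis passed the filter. Of the 22 genes, 20 lay below and 2 above 0 (median −0.23), and 1 was called lower and 0 higher (5 lower by DESeq2). Of all 12450 genes tested, 6420 lay below 0, and 2.84% were called lower by edgeR. B4GALT5, a lactosylceramide synthase, fell from 2814, 3950 and 4039 normalized counts in shControl to 1876, 1870 and 2069 in shSQLE (−0.89 ± 0.15, adjusted p = 0.0214, edgeR). KDSR, the reductase of the second step of ceramide synthesis, was at 1410, 1563 and 1570 and at 1101, 1101 and 1102 (−0.46 ± 0.10, adjusted p = 0.0573). The call for B4GALT5 held in all 10 alternatives that keep the 6 libraries and was lost when any library other than shControl replicate 1 was left out, with adjusted p up to 0.136. Its log2 fold change stayed between −1.04 and −0.79 over the alternatives. Without shControl replicate 1, 11 of the 22 were called lower and 1 higher (median −0.31), where 2300 of 12570 genes over all were called lower. With the GC content and length offsets 5 of the 22 were called lower and 0 higher (median −0.13), where 1080 of 12447 genes were called lower.

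Proteins anchored by glycosylphosphatidylinositol gather in rafts, and of 20 such genes 17 passed the filter, 9 below and 8 above 0, with a median of −0.14. In this list 3 were called lower and 0 higher, beside 2.84% of all genes lower and 0.369% higher. With the GC content and length offsets 5 were called lower and 4 higher, beside 1080 lower and 1507 higher of 12447 genes. The median of the list turned to 0.04 without shControl replicate 1 and was −0.01 with the offsets. NT5E, the ecto-nucleotidase CD73, fell from 1034, 1389 and 1385 normalized counts to 596, 558 and 574 (−1.14 ± 0.14, adjusted p = 0.00591, edgeR). CD55, a complement inhibitor, fell from 503, 619 and 590 to 309, 366 and 326 (−0.78 ± 0.14, adjusted p = 0.0235). EFNA1, an ephrin ligand, fell from 32.3, 22.6 and 35.3 to 3.92, 7.88 and 7.19, values that rest on few reads (−2.22 ± 0.36, adjusted p = 0.0166).

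In these 3 genes each shSQLE library lay below each shControl library. With 1 library left out, the call for CD55 held without shControl replicate 1 alone, that for EFNA1 without shControl replicate 1 or 2, and that for NT5E without any of the shControl libraries. All 3 calls were lost when any shSQLE library was left out, and the adjusted p then or in any other alternative reached at most 0.162 for CD55, 0.0961 for EFNA1 and 0.0575 for NT5E. The log2 fold changes kept their size over the alternatives, from −0.86 to −0.71 for CD55, from −2.41 to −1.97 for EFNA1 and from −1.27 to −1.06 for NT5E. Without shControl replicate 1, 6 of the 17 were called lower and 2 higher, where 2300 and 1964 of 12570 genes were called.

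Raft adaptors, such as annexins and palmitoylated scaffold proteins, numbered 13, of which 11 passed the filter, 9 below and 2 above 0, with a median of −0.10. By edgeR 0 were called and 3 were lower at an unadjusted p under 0.05, DESeq2 called 2 lower, and limma-voom called 0. CD44, the hyaluronan receptor, was at 10321, 12214 and 12122 normalized counts in shControl and at 8678, 8652 and 8636 in shSQLE (−0.42 ± 0.10, adjusted p = 0.0873, edgeR). PAG1, which anchors the kinase CSK in rafts, was at 135, 174 and 196 and at 94.98, 85.7 and 115 (−0.77 ± 0.19, adjusted p = 0.0878). Both had groups that did not overlap. With shControl replicate 1 left out, 2 of the 11 were called lower and 1 higher, beside 2300 lower and 1964 higher of 12570 genes. With the GC content and length offsets 4 were called lower and 1 higher, beside 1080 lower and 1507 higher of 12447.

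Clathrin-coated pits are the other main route into the cell, and all 27 genes of that list passed the filter, 13 below and 14 above 0, with a median of 0.02. By edgeR 0 were called, with 2 lower and 1 higher at an unadjusted p under 0.05, DESeq2 called 1 higher, and limma-voom called 0. AMPH, amphiphysin, was at 136, 165 and 152 normalized counts in shControl and at 266, 205 and 262 in shSQLE (0.69 ± 0.16, adjusted p = 0.0693, edgeR). AP2B1, a subunit of the clathrin adaptor AP2, was at 1662, 1717 and 1625 and at 1280, 1300 and 1476 (−0.30 ± 0.11, adjusted p = 0.227). Calls came to 9 lower and 7 higher of the 27 without shControl replicate 1, where 2300 and 1964 of 12570 genes were called. They came to 2 lower and 6 higher with the GC content and length offsets, where 1080 and 1507 of 12447 genes were called.

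The calls in each list should be read beside those over all genes, which without shControl replicate 1 came to 2300 lower and 1964 higher, against 354 and 46 with it. With the GC content and length offsets, 1080 genes were called lower and 1507 higher, which turns the split between the directions. These are bulk libraries, and a lower count in fewer cells cannot be told apart from less RNA per cell. RNA levels of coat genes do not measure caveolae, which were not counted in these data.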

How the data were processed

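Libraries were made from mRNA selected by poly(A) from total RNA of U2OS cells and mapped by the authors to hg38. The submitters' processing notes name fastp 0.20.0, STAR 2.7.9a and featureCounts 2.0. The deposited values are raw read counts per gene, 1 column per library. The annotation release, the strand setting and the treatment of reads with several matches are not given in the sources used here. Libraries were grouped by their labels. The members and lists were chosen with earlier results of these data known, and no pattern already seen there is independent support.

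From the counts, genes with few counts were removed (filterByExpr), leaving 12450, and libraries were scaled by TMM. Differences were fitted with edgeR 4.0.16 (R 4.3.3) by the quasi-likelihood test on condition alone, with Benjamini-Hochberg adjustment over all genes tested and a threshold of 0.05. Normalized counts are counts divided by TMM-scaled relative depth. Lengths, GC content and overlaps are from GENCODE 44 on hg38. Likeness used a prior count of 2. Genes were named by rule: all members, the called genes of each other list or, where fewer than 2, the 2 with the smallest p, and the 3 genes most like the member with the smallest p. On simulated data with 199 changed genes, the test recovered 86.9% at a log2 change of 1 and 100% at 2, and 4.12% of calls were false. The members' log2 fold changes lay between −0.62 and 0.13, and recovery at changes of that size is not given by the simulation. Alternatives were DESeq2 1.42.0, limma-voom (limma 3.58.1), other scalings and filters, a replicate block, GC content and length offsets (mgcv 1.9.3), and leaving out each library.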

Additional observations from a re-analysis of the deposited data

How the results depend on the processing

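With 3 libraries a group, the number of calls depended mainly on shControl replicate 1. When each library was left out in turn, calls over all genes ranged from 101 to 2300 lower and from 4 to 1964 higher, both highest without shControl replicate 1, and members called ranged from 0 to 1 lower and from 0 to 1 higher. The fold change of CAV1 then ranged from −0.016 to 0.14, FLOT1 from −0.34 to 0.018, FLOT2 from −0.18 to 0.10 and EHD2 from −0.057 to 0.11, so their signs turned. EHD2 was at −0.014 with library size alone as the scaling. DESeq2 called 568 genes lower and 162 higher, and no member. GC content and length offsets gave 1080 lower and 1507 higher over all genes, with 2 members lower (CAV2 and CAVIN3). With the replicate block added to those offsets, the numbers were 1022, 1365 and 2, and the median of all genes under the offsets was 0.06. The cause of these shifts was not tested. Replicate numbers did not pair the samples (correlations of deviations 0.138, −0.433 and 0.543), and the replicate block alone gave 362 genes lower and 34 higher and 0 members. CAV2, CAVIN3 and PACSIN2 kept their signs, and CAVIN1 did too, in all 16 alternatives, and SQLE was called in all 16. Ratios per kilobase with the longest coding transcript as the length were added after seeing the data.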
